A study of Mus musculus with 8 samples.

Results

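Striatal microglia are the cells that the authors' annotation calls microglia among single striatal cells dissociated from WT and Setd1a+/- animals. They numbered 271 of 14690 annotated striatal cells (1.84%), out of 23687 annotated cells over striatum and PFC. Each was found by its library and barcode in that library's matrix of unique molecular identifier (UMI) counts, in which a UMI stands for 1 captured RNA molecule. The study asked how loss of 1 copy of Setd1a, a histone H3K4 methyltransferase linked to schizophrenia, changes gene expression in each cell type of these regions. The striatal libraries were WT 1, WT 2, Setd1a+/- 1 and Setd1a+/- 2, each from the pooled tissue of 2 male C57BL/6N mice without treatment. Setd1a+/- mice carried a frameshift deletion made with CRISPR in 1 allele, and WT mice were their littermates. Per the methods the deletion was made in BDF1 zygotes, and the line was then backcrossed to C57BL/6N over several generations. The labels name the tissue as NAc and the age as 8 to 10 weeks, whereas the paper names dorsal and ventral striatum and its methods an older age. Age entered no test.

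Microglia are the resident macrophages of brain tissue. They depend on the receptor Csf1r and its ligands Il34 and Csf1, sense nucleotides through P2ry12, secrete the C1q subunits of complement, and degrade what they engulf in lysosomes. The transcription factors PU.1 (Spi1), Irf8, Sall1 and Mef2c are known to maintain their identity, and TGF-beta from neighboring cells is known to keep them in the homeostatic state.

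WT 1 held 83 microglia with 238172 UMIs, WT 2 held 76 with 232814, Setd1a+/- 1 held 88 with 224079 and Setd1a+/- 2 held 24 with 66934. The median microglial cell had 2188 to 2748 UMIs in the 4 libraries. Levels are given as CPM, counts per 1e6: the UMIs of a gene scaled to the UMIs summed over the microglia of a library, so that 1 UMI was worth about 4 CPM in the larger libraries and 14.9 CPM in Setd1a+/- 2. The library Setd1a+/- 2 stood apart from the other 3. Its summed level of 12 microglial markers was 18989 CPM against 31828 to 39557 CPM, and 10 of its 24 microglia carried markers of medium spiny neurons (MSNs). Results that rest on it are given with and without it. No microglial barcode occurred in more than 1 striatal library, although 10 to 24 barcodes of annotated cells were shared between any pair.

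Markers were detected in most cells that carry the annotation, which was itself made from these counts, so their detection is a description and no independent check. Of the 271 cells, 262 had a UMI of at least 6 of the 12 microglial markers and 144 had all 12. After each cell was thinned to 1000 UMIs, the protease gene Ctss was found in 92.3% of microglia, C1qa in 93.4% and P2ry12 in 54.6%. Without thinning these shares were 98.5%, 96.7% and 77.1%. In D1 MSNs, which should lack the genes and had a median of 3167 UMIs against 2285 in microglia, the thinned shares were 0.871%, 0.82% and 0.205%. These shares serve as the background.

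Microglial identity genes were far above every other striatal cell type. Among 989 genes at 100 CPM or more in microglia of all 4 libraries, 124 (12.5%) were highest in microglia and 45 exceeded every other type by over 10 times in the mean over libraries. The 25 genes with the highest ratio were 74.2 to 256 times above the next type, with a median of 125, and the gene just below them, Bin2, was 71.7 times above. These ratios are a description with no test, because the same counts served to name the cell types.

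Purinergic and chemokine receptors, through which microglia survey tissue, were among them. P2ry12 measured 940 and 782 CPM in WT 1 and WT 2, and 964 and 463 CPM in Setd1a+/- 1 and Setd1a+/- 2. Its highest level in another type was 4.14 CPM, in neuroblasts. Gpr34, a lysophosphatidylserine receptor, had the highest ratio, with 768, 812, 1084 and 583 CPM in the same order of libraries and 3.17 CPM in endothelial cells. Cx3cr1, the fractalkine receptor, measured 940, 747, 1156 and 837 CPM, and Csf1r 966, 842, 973 and 717 CPM. For P2ry12, Gpr34 and Csf1r the lowest value was that of Setd1a+/- 2, and Cx3cr1 was lowest in WT 2.

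The 3 chains of the complement component C1q had the highest mean levels of the 25 genes over the 4 libraries, although Ctss exceeded C1qc in WT 2 and both C1qa and C1qc in Setd1a+/- 2. C1qa measured 7154 and 4897 CPM in WT 1 and WT 2, and 7475 and 2196 CPM in Setd1a+/- 1 and Setd1a+/- 2. C1qb was at 5596 ± 1770 CPM (SD, n = 4) and C1qc at 4028 ± 1170 CPM, 204 and 184 times the next type. Setd1a+/- 2 was the lowest library for all 3 chains. C3, the component on which the complement pathways converge, had 1 UMI in all striatal microglia, whereas its receptor C3ar1 was at 71.4, 68.7, 75.9 and 0 CPM.

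Genes of the phagocytic signaling complex and of lysosomes followed. Trem2, a lipid receptor, was at 1539 ± 386 CPM and its adaptor Tyrobp at 3125 ± 1004 CPM (SD, n = 4). Ctss reached 3901, 4360, 4445 and 2854 CPM, 235 times the next type. Other lysosomal genes were shared with the rest of the tissue. Of 22 lysosomal genes, 18 were highest in microglia but 9 exceeded every other type by over 4 times: Cst3, a cathepsin inhibitor and the most abundant of the list at 65551 ± 11368 CPM, was 3.03 times above astrocytes, and Psap, a saposin precursor, was 1.13 times above them.

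**Figure D1:**
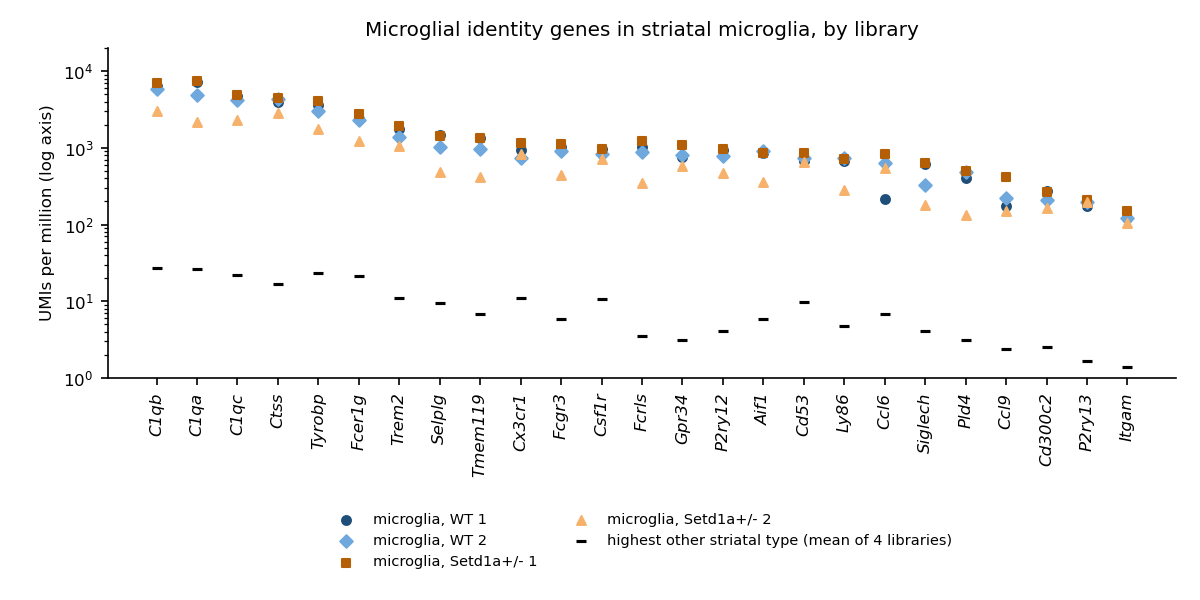
Level of the 25 identity genes in microglia of each striatal library (points, CPM on a log axis) and in the highest other striatal type (dashes, mean of 4 libraries). All 25 lie 74.2 to 256 times above the next type, and Setd1a+/- 2 (triangles) is the lowest library for most of them.

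The promoters of identity genes are shown because many hold the same short sequence. RefSeq promoters (build GRCm38.p6, 250 bases before to 50 after the start) were found for 19 of the 25 genes, and AGGAAGT or its reverse complement ACTTCCT stood in 9 of the 19 (47.4%), against 9.35% of 32851 promoters. The sequence has the GGAA core that ETS factors such as PU.1 bind, and it was chosen for counting after these promoters had been seen. Capitals mark it in the promoters of P2ry12, Ctss, C1qb and C1qc, where it begins at positions -52, -2, -53 and -195 from the start, and the promoter of Cx3cr1 is an example without it.
P2ry12, chr3:59262936-59263235, minus strand: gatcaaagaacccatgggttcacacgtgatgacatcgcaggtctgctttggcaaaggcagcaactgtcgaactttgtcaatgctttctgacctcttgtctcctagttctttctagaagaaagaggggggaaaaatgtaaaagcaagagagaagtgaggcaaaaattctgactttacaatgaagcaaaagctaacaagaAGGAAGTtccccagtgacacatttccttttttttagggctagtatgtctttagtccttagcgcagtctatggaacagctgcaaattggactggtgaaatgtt
Ctss, chr3:95526536-95526835, plus strand: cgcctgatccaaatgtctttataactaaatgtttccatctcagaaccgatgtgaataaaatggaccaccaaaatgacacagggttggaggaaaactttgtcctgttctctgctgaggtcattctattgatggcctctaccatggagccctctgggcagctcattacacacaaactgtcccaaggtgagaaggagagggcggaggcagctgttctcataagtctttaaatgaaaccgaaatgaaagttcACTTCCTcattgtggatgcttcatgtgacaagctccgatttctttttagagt
C1qb, chr4:136886151-136886450, minus strand: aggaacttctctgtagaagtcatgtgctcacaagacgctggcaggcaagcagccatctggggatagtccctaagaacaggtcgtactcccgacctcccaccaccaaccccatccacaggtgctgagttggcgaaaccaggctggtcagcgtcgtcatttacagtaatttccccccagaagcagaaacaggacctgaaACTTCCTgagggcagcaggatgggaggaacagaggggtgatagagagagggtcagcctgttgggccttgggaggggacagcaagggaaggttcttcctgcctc
C1qc, chr4:136892865-136893164, minus strand: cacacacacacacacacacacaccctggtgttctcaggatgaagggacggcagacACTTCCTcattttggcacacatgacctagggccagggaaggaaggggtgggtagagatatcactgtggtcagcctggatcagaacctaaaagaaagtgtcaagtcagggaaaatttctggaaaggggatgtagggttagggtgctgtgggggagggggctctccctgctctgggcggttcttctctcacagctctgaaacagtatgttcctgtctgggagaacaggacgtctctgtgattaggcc
Cx3cr1, chr9:120068247-120068546, minus strand: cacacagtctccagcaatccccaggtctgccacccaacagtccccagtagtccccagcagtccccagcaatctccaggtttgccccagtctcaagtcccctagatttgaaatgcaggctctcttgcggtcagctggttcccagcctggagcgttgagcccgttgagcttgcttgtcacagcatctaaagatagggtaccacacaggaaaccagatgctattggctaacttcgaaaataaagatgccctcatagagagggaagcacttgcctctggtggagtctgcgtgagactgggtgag

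The annotated microglia were not uniform. A set of 16 cells, 6 in WT 1, 4 in WT 2, 6 in Setd1a+/- 1 and 0 in Setd1a+/- 2, had at least 3 of 10 markers of border-associated macrophages, which line the vessels and meninges. The cell just inside this threshold had 4 such markers and no other cell had over 1. These 16 cells had 6 to 10 of the 12 microglial markers but no UMI of Tmem119, a gene of parenchymal microglia, which was at 1229 CPM in the 248 cells outside this and the following set. P2ry12 had 3 UMIs in them, or 99.3 CPM against 917 CPM. C1qa was not low, with 9733 against 6158 CPM. The 248 cells were not uniform either, with 2 to 12 of the 12 microglial markers and a median of 12. They held all 12 UMIs of Ly6c2 and all 7 of Nkg7, markers of other immune cells, each in Setd1a+/- 1 alone. Of 14419 striatal cells annotated as other types, 21 also had at least 3 of the macrophage markers.

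Some genes often read as microglial states had a large part of their UMIs in those 16 cells, and others had little or none. The 16 cells held 61.8% of the Apoe UMIs of striatal microglia, at 40056 CPM against 1050 CPM in the 248 cells. The lipoprotein gene Apoe measured 2330, 2530, 3570 and 224 CPM over all microglia of WT 1, WT 2, Setd1a+/- 1 and Setd1a+/- 2, and the last library had none of the 16 cells. Without the 16 cells Apoe was at 509, 777, 2079 and 224 CPM, so Setd1a+/- 2 stayed the lowest library and Setd1a+/- 1 the highest. The 16 cells also held all 31 UMIs of the chemokine gene Ccl7, 82.4% of those of the growth factor gene Igf1, 59.2% of those of Wfdc17 and 26.3% of those of the lysozyme gene Lyz2. In contrast, they held 0% of the UMIs of Cst7, Lpl and Spp1, 0.275% of those of Cd9 and 14.4% of those of Cd63. These values pool cells over libraries and carry no test.

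A second set of 7 cells was marked by MHC class II genes, which present antigen to T cells. They had 35 to 222 UMIs of the invariant chain gene Cd74, and the next cell had 8, so the threshold of 10 was chosen after seeing the data. WT 1 had 1 of them, WT 2 had 5, Setd1a+/- 1 had 0 and Setd1a+/- 2 had 1. They held 93.4% of Cd74 UMIs and all UMIs of H2-Aa and H2-Eb1. They had 3 to 7 of the 12 microglial markers and no UMI of P2ry12, Cx3cr1 or Tmem119, and the receptor gene Ccr2 had 8 of its 13 UMIs in them. The data gave them no name. Of 14419 striatal cells annotated as other types, 10 also had at least 10 Cd74 UMIs. Over all microglia, Cd74 was at 244, 3307, 44.6 and 1882 CPM in the same order of libraries. Because the 7 cells were picked by Cd74, its level and their libraries go together by that choice.

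**Figure D2:**
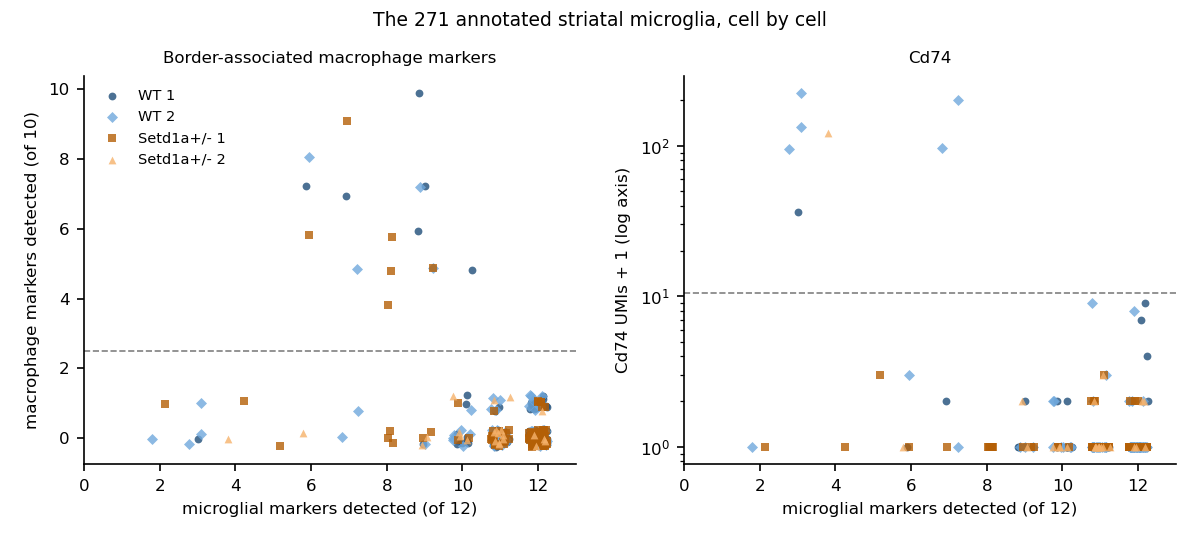
Each of the 271 striatal microglia by the number of microglial markers detected and, on the left, the number of macrophage markers or, on the right, Cd74 UMIs plus 1 on a log axis. The dashed lines are the thresholds of 3 markers and 10 UMIs, above which lie 16 and 7 cells, and points are jittered to show overlaps.

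RNA of other cell types was also present. Of the 271 microglia, 113 (41.7%) had a UMI of at least 50% of the marker list of another striatal type, most often of MSNs (17, 12, 7 and 10 cells in WT 1, WT 2, Setd1a+/- 1 and Setd1a+/- 2) or of endothelial cells (12, 7, 20 and 3). This detection was not thinned to an equal depth. Cells so marked had medians of 3143, 3780, 2475 and 3007 UMIs in the same order of libraries, against 1987, 2031, 1954 and 2549 in the rest. The 8 MSN markers summed to 2225, 2418, 1843 and 2883 CPM in microglia of the 4 libraries. The same markers summed to 5357, 4602, 4906 and 4884 CPM in droplets with at most 50 UMIs, which hold free RNA alone, and to 9180 CPM in D2 MSNs. Without the 113 cells the sums in microglia were 841, 711, 1266 and 941 CPM. No doublet caller was run, and the methods as read here name no doublet step.

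Of 20 measured genes of the disease-associated program, 11 were at 100 CPM or more in every library, and the list summed to 25633, 21691, 32176 and 12654 CPM in WT 1, WT 2, Setd1a+/- 1 and Setd1a+/- 2. The abundant members include genes of resting microglia and of other types, such as Tyrobp, B2m and the tetraspanin gene Cd9, which was highest in newly formed oligodendrocytes. Other members were low: Cst7, a cystatin, was at 37.8, 17.2, 26.8 and 0 CPM, Itgax, an integrin, at 16.8, 0, 0 and 14.9 CPM, and the osteopontin gene Spp1 at 4.2, 4.3, 129 and 0 CPM. Clec7a was not analysed here. Of the cytokines, Tnf had 4 UMIs, all in the 7 class II cells, Il1b had 12 UMIs, 10 of them in those cells, and Il10 had 0 UMIs in 271 cells, which allows a level of up to 3.94 CPM (3 UMIs over the group). The chemokine genes Ccl6 and Ccl9, in contrast, were identity genes, with 559 ± 260 and 239 ± 118 CPM (SD, n = 4) and ratios of 81.2 and 99.1. The median microglial cell had 1, 0, 0 and 1 of 16 cell cycle genes in the 4 libraries, with 3 UMIs of Mki67 and 8 of Top2a in all. The highest cell of each library had 9, 8, 11 and 2 of the 16, so single cells stood far above the median in 3 libraries.

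Of the ligands that act on such receptors, Il34, Cx3cl1, Cd200 and Gas6 were highest in other striatal types. Il34 was highest in endothelial cells, at 88 CPM, where microglia had 24.8 ± 6.83 CPM (SD, n = 4). Cx3cl1, the fractalkine gene, was highest in D2 MSNs at 382 CPM, and Cd200, a restraining ligand, in endothelial cells at 524 CPM. Gas6, a ligand of the phagocytic receptor Mertk, was highest in astrocytes at 137 CPM. Pros1, another Mertk ligand, was at 68.1 CPM in endothelial cells and 51.2 ± 24.2 CPM in microglia. Csf1 had 2 UMIs and Tgfb1 also 2 UMIs in striatal microglia. Among their transcription factors, Mef2c was at 339 ± 77.4 CPM, Irf8 at 244 ± 137 CPM and Sall1 at 54.3 ± 14.3 CPM, while Spi1 was at 4.2, 4.3, 13.4 and 14.9 CPM, about 1 to 3 UMIs a library.

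The share of microglia did not separate the genotypes. Microglia were 1.9% of annotated cells in WT 1 (95% Wilson interval 1.54 to 2.35%) and 1.88% in WT 2 (1.51 to 2.35%). They were 2.32% in Setd1a+/- 1 (1.89 to 2.85%) and 0.962% in Setd1a+/- 2 (0.647 to 1.43%). The difference of the means, Setd1a+/- minus WT, was -0.252 percentage points (exact permutation test, two-sided, p = 1.0, n = 2 per group, where 0.33 is the smallest p possible). The direction turned without Setd1a+/- 2, to a difference of 0.426 points. Glial and vascular cells were 19.9% of annotated cells in that library against 43.3 to 66.5% in the others, and among glial and vascular cells microglia were 3.6, 4.35, 3.49 and 4.84% in the 4 libraries, a difference of 0.19 points (exact permutation p = 1.0). The intervals cover counting error alone.

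Setd1a itself was too low in these cells to check the genotype. It had 3, 1, 1 and 0 UMIs in WT 1, WT 2, Setd1a+/- 1 and Setd1a+/- 2, or 12.6, 4.3, 4.46 and 0 CPM. The UMI count does not resolve the deleted bases either, so a count would not test the allele. The other H3K4 methyltransferase genes were also low, with Kmt2a at 42, 43, 58 and 105 CPM and Kmt2d at 25.2, 60.1, 71.4 and 44.8 CPM, and neither had an unadjusted p under 0.05 in edgeR. A difference in Setd1a RNA was not detectable at this depth.

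No gene was called between Setd1a+/- and WT striatal microglia. Of 3753 genes tested with edgeR's quasi-likelihood test on the summed counts, 0 (0%) had an FDR under 0.05 and an FC above 2, and 62 had an unadjusted p under 0.05. DESeq2 also called 0, with 5 at an unadjusted p under 0.05. When the replicate number entered as a block, edgeR called 1 gene, which was lower in Setd1a+/-.

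Among microglial genes, P2ry12 differed by a log2 FC of -0.19 ± 0.42 (SE), Ctss by -0.14 ± 0.39 and C1qa by -0.25 ± 0.54, with an FDR of 1 in edgeR for each. The 25 homeostatic genes, all tested, had a median log2 FC of -0.06, the 22 lysosomal genes -0.16 and 8 tested complement genes -0.24, beside 0.00 over all genes. Without Setd1a+/- 2, where Setd1a+/- 1 alone stood for the genotype, these medians were 0.30, 0.25 and 0.22. Their sign thus depended on which Setd1a+/- libraries were kept. The 12 tested chemokine and cytokine genes had a median of 0.29. The 4 tested genes of H3K4 methyltransferases and their complex subunits had a median of 0.27, with 0 called in either list. Without Setd1a+/- 2 the chemokine and cytokine median was 0.70 and that of the 4 genes 0.28. Of 164 tested genes over 4 times above every other striatal type, 64 had a log2 FC above 0, with a median of -0.09. That median was 0.22 without Setd1a+/- 2 and -0.96 without Setd1a+/- 1, where 186 such genes were tested. A p that misses the threshold does not show that the genotypes were alike.

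The 10 genes named here had the smallest p among 1017 genes (27.1% of those tested) whose WT and Setd1a+/- libraries did not overlap, and all 10 had an FDR of 1. Lower in both Setd1a+/- libraries was Ppp2r2c, a phosphatase 2A subunit, at 88.2 and 81.6 CPM in the WT libraries against 17.9 and 29.9 CPM (log2 FC -1.94 ± 0.55, SE). Lsamp, a cell adhesion gene of neurons and astrocytes, had 105 and 133 against 40.2 and 29.9 CPM (-1.61 ± 0.48), and Calb2, the calretinin gene, 75.6 and 55.8 against 13.4 and 0 CPM (-2.57 ± 0.76). These 3 genes had their highest striatal levels outside microglia: in interneurons for Ppp2r2c (176 CPM), in astrocytes for Lsamp (401 CPM) and in oligodendrocyte progenitors for Calb2 (195 CPM). The part of RNA from those types was not tested. 2310033P09Rik, Lrpprc and Ptgds were also lower in both Setd1a+/- libraries, with log2 FC of -1.64, -2.03 and -2.08. They were highest in neuroblasts (126 CPM), D1 MSNs (90.9 CPM) and oligodendrocytes (4598 CPM), in that order. Ptgds was at 164 and 47.2 CPM in WT 1 and WT 2 against 26.8 and 14.9 CPM. Oligodendrocyte markers in microglia summed to 2007, 249, 339 and 239 CPM in WT 1, WT 2, Setd1a+/- 1 and Setd1a+/- 2. The part of that RNA was not tested either.

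Higher in both Setd1a+/- libraries were Sgms1, Ykt6, Mrpl39 and Ccl12. Sgms1 was at 25.2 and 12.9 CPM in the WT libraries against 89.3 and 44.8 CPM (log2 FC 2.02 ± 0.61, SE), and was highest in endothelial cells at 479 CPM. Endothelial markers in microglia summed to 1092, 868, 2182 and 478 CPM in WT 1, WT 2, Setd1a+/- 1 and Setd1a+/- 2. The part of endothelial RNA was not tested. Ykt6, a SNARE protein gene, was at 50.4 and 21.5 CPM in the WT libraries against 93.7 and 134 CPM (log2 FC 1.59 ± 0.51, SE). Mrpl39, a mitochondrial ribosomal protein gene, had 12.6 and 12.9 against 53.6 and 59.8 CPM (2.11 ± 0.72), which is 3 UMIs in each WT library. Ccl12, a monocyte chemokine gene and the member of the group that microglia expressed above every other striatal type, had 84 and 98.8 against 379 and 105 CPM (1.59 ± 0.54). Only Setd1a+/- 1 was far from WT for Ccl12, and 28.9% of its UMIs were in the 16 macrophage-marker cells.

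The library Setd1a+/- 2 compared with both WT libraries alone gave 108 called genes, 34 higher and 74 lower. Of the 74 lower genes 46 (62.2%) were highest in microglia, against 9.7% of the 4671 genes tested in that fit, among them C1qa (2196 CPM against 7154 and 4897 CPM), Tmem119 (418 against 1331 and 975 CPM) and Selplg (478 against 1474 and 1031 CPM), the gene of a selectin ligand. Of the 34 higher genes 23 (67.6%) were highest in a neuronal type, against 48.9% of those tested. The hemoglobin gene Hba-a1 was at 1539 CPM in Setd1a+/- 2 and at 244, 4.3 and 13.4 CPM in WT 1, WT 2 and Setd1a+/- 1. In this comparison 1 library stands for the genotype, and its spread is taken from the WT libraries. Leaving out WT 1, WT 2 or Setd1a+/- 2 instead gave 0 calls in edgeR, with 17, 24 and 245 genes at an unadjusted p under 0.05.

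**Figure D3:**
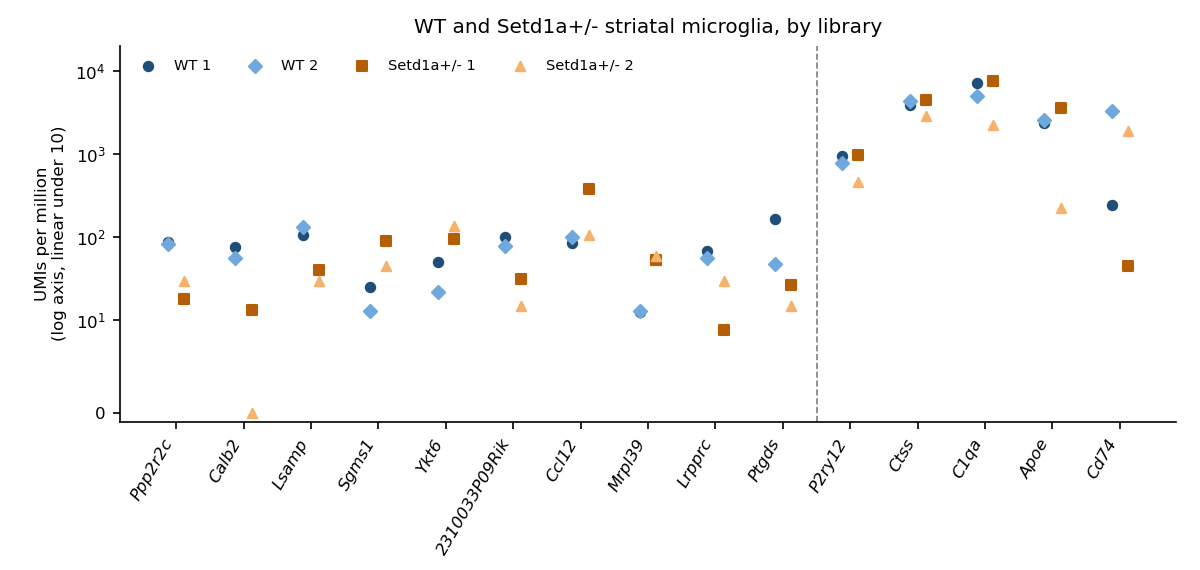
Level in each striatal library (CPM, log axis, linear under 10) of the 10 genes with the smallest unadjusted p among those without overlap between genotypes, left of the dashed line, and of 5 further genes measured in microglia, right of it. The 4 libraries of P2ry12 and Ctss overlap between genotypes, and Apoe and C1qa are lowest in Setd1a+/- 2.

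Striatal microglia were compared with the 482 PFC microglia, 5.36% of 8997 annotated PFC cells, to see where they differ. PFC WT 1, WT 2, Setd1a+/- 1 and Setd1a+/- 2 held 265, 80, 46 and 91 of the 482. Those were 10.1, 2.99, 2.1 and 6.03% of the annotated cells of each library, so the pooled share is not that of a typical library. Of 2996 genes tested over all 8 libraries with genotype in the model, edgeR called 496 (16.6%), of which 340 (11.3%) were higher and 156 (5.21%) lower in striatum. With library size alone in place of TMM factors the calls were 401 higher and 65 lower, and the median of all genes moved from -0.03 to 0.16. The tissues also differed in dissection, digestion time and separate annotation, which cannot be told apart from the tissue.

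Most genes that were higher in striatal microglia were more abundant in MSNs than in microglia. Of the 340, 326 (95.9%) had a higher level in D1 or D2 MSNs than in microglia, against 55.7% of all genes tested, and 6 were highest in microglia. Tac1, the substance P precursor of D1 MSNs, had 697, 889, 616 and 702 CPM in striatal microglia and 1.77, 0, 0 and 0 CPM in PFC microglia, a ratio of 771 (95% counting interval 138 to 30501). Penk, the enkephalin precursor of D2 MSNs, had a ratio of 246 (83.8 to 1198), and Ppp1r1b, which encodes DARPP-32, of 197 (54 to 1633). Cartpt, a neuropeptide gene, Nrsn2, Smpd3 and Ralyl had no UMI in PFC microglia and were at least 63.5-fold, 40.1-fold, 23.5-fold and 22.1-fold higher against a floor of 3 UMIs over the group. Sez6, Gnal, Spock3 and Rasd2, with 1 to 3 UMIs in PFC microglia, had ratios of 87 (15.1 to 3491), 55.3 (18.5 to 272), 55.3 (18.5 to 272) and 69.1 (11.8 to 2782). All of these genes were higher in D1 or D2 MSNs than in microglia.

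Microglial identity genes leaned lower in striatal than in PFC microglia, and a part of them was called. Over the 163 tested genes more than 4 times above every other striatal type, the median log2 FC was -0.82, beside -0.03 over all genes. The 163 genes were chosen by their levels in striatal types, not in PFC microglia. Of the 156 lower genes, 82 (52.6%) were highest in microglia among striatal types, against 12.2% of all genes tested. Of 24 homeostatic genes tested, 11 were lower and 0 higher, beside 5.21% lower and 11.3% higher of all genes tested. Their median log2 FC was -0.94, and for 16 of the 24 the tissues did not overlap, beside 26.9% of all genes. P2ry12 had 940, 782, 964 and 463 CPM in striatum and 3314, 1152, 2390 and 2015 CPM in PFC (log2 FC -1.59 ± 0.34, SE, edgeR FDR 0.0073). Gpr34 had 768, 812, 1084 and 583 CPM against 2383, 1504, 2026 and 2312 CPM (-1.44 ± 0.26, FDR 0.00327), and neither gene overlapped between tissues. Tgfbr1, the TGF-beta receptor, Itgam, the CD11b integrin, and Cd33, an inhibitory lectin, were lower as well, and these 5 genes were called whichever library was left out. Slc2a5, P2ry13, Aif1, Siglech, Mertk and Fcrls were also called, and lost the call in 1, 1, 3, 4, 5 and 6 of the 8 fits that each left out 1 library. With library size alone 5 of the 24 were lower, beside 2.17% of all genes, and all 24 had a log2 FC under 0 in either scaling.

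Lysosomal and transcription factor genes were also among those lower in striatum, where 5.21% of all tested genes were lower. Of 22 lysosomal genes, 5 were lower and 0 higher, among them Ctss (log2 FC -1.11 ± 0.24, SE), Lgmn, the legumain gene (-1.06 ± 0.25), Laptm5 (-1.26 ± 0.31) and Ctsl (-1.15 ± 0.30). Each of the 5 lost the call when some library was left out, and Ctss, Lgmn and Ctsl were among those that lost it without Setd1a+/- 2, where Ctss was at -0.96. Without PFC WT 1 the call was lost for Lgmn, Ctsl and Laptm5 among others, and without striatal WT 2 for Ctsl and Laptm5. The transcription factor genes Mef2c (-1.12 ± 0.24), Sall1 (-1.17 ± 0.27) and Irf8 (-1.04 ± 0.34) were lower, 3 of 9 tested. Mef2c kept the call whichever library was left out, Sall1 lost it without striatal WT 1 or WT 2, and Irf8 lost it in 7 of 8 such fits. With library size alone 1 lysosomal gene and 0 transcription factor genes were called. Of 8 tested complement genes, 2 were lower, among them Itgam, and the C1q chains were not called. C1qa was at 5431 ± 2443 CPM in striatum and 6169 CPM in PFC. Other lower genes included Havcr2, the checkpoint receptor gene (log2 FC -1.89 ± 0.33), Golm1 (-1.88 ± 0.40), Adap2os (-1.78 ± 0.31), Pros1, a ligand of Mertk (-1.76 ± 0.36), Casp8 (-1.60 ± 0.33) and Frmd4a (-1.58 ± 0.33), all called whichever library was left out. Capn3 (-1.76 ± 0.39) and Dock2 (-1.65 ± 0.36) lost the call in 2 of those fits each. Rps27rt had a log2 FC of -2.06 ± 0.47, lost the call without striatal WT 1, and may share reads with its near-identical relatives among ribosomal protein genes.

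Other cell types moved with these results. In PFC 91 of 482 microglia carried another type's list, against 113 of 271 in striatum. The lists held no markers of cortical excitatory neurons, so PFC microglia with RNA of those neurons could not be flagged by them. The MSN list was carried by 17, 12, 7 and 10 striatal microglia and by 0 PFC microglia of any library. The counts of the tissues are thus not alike, and leaving out such cells filtered the tissues unequally. MSN markers summed to 1843 to 2883 CPM in striatal and 7.09 to 50.6 CPM in PFC microglia. Astrocyte markers summed to 89.6 to 340 CPM in striatal and 578 to 1168 CPM in PFC microglia, and the astrocyte genes Aldoc (log2 FC -2.64 ± 0.41, SE) and Slc1a3 (-1.74 ± 0.31) were among the 12 named lower genes. Without the cells that carried another type's list, 113 of 1467 genes were called, 91 (6.2%) higher and 22 (1.5%) lower, and 82 of the 91 were still above microglia in D1 or D2 MSNs. In that fit 4 of 23 homeostatic genes were lower: P2ry12 (-1.30 ± 0.33, FDR 0.0298), Gpr34 (-1.25 ± 0.24), Itgam (-1.25 ± 0.31) and Tgfbr1 (-1.04 ± 0.27), and all 23 had a log2 FC under 0. Mef2c was lower too, at -1.04 ± 0.23, and Ctss was at -0.81 ± 0.22 (edgeR FDR 0.0389), under the required FC. The part of RNA from other cell types in the differences that remained was not tested.

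**Figure D4:**
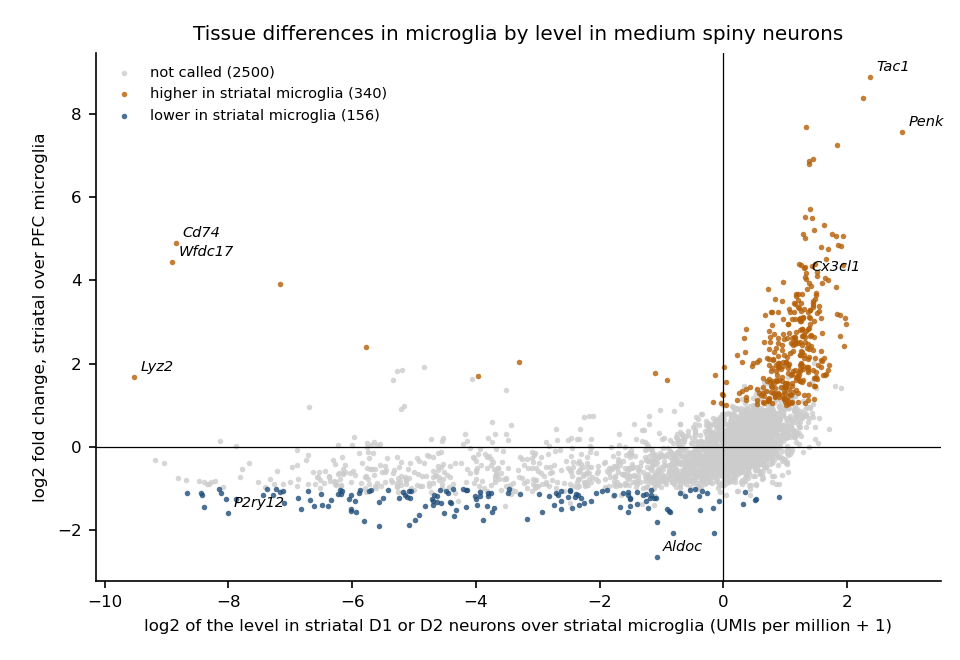
Tissue difference of 2996 genes (log2 fold change, striatal over PFC microglia) against the log2 of their level in striatal D1 or D2 MSNs, whichever was higher, over their level in striatal microglia. The genes higher in striatum (340) lie nearly all to the right of 0, and those lower (156) mostly to the left. Both axes use the level in striatal microglia.

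Of the 163 tested genes over 4 times above every other striatal type, 4 (2.45%) were higher in striatal microglia and 43 (26.4%) lower. Among all genes tested, 11.3% were higher and 5.21% lower. The 163 genes were chosen by their level in striatal microglia, so a gene low in PFC microglia could enter through striatum alone. Cd74, for example, had a mean of 42.4 CPM in PFC microglia and 47.4 CPM in striatal endothelial cells. The 4 higher genes were Wfdc17, Pf4, Cd74 and Lyz2. Wfdc17, a secreted protein gene of macrophages, had 428, 550, 888 and 508 CPM in striatum and 0, 119, 0 and 0 CPM in PFC (log2 FC 4.44 ± 0.95, SE, edgeR FDR 0.00791). The PFC library with a value, WT 2, was also the only PFC library with macrophage-marker cells (2) and with a cell of at least 10 Cd74 UMIs (1). Without those Cd74 cells, Cd74 went from a log2 FC of 4.89 ± 1.33 to 1.91 ± 0.85 and Lyz2 from 1.68 ± 0.52 to 1.45 ± 0.74, and neither was called (edgeR FDR 0.133 and 0.186). The cells were picked by their Cd74 UMIs, so the fall of Cd74 was fixed by that choice. Without the macrophage-marker cells Lyz2 was at 1.41 ± 0.50 and also not called (FDR 0.0637), and Pf4 and Wfdc17 passed the count minimum in too few libraries to be tested. Wfdc17 then had 6, 55, 94 and 34 UMIs in striatal and 0, 1, 0 and 0 UMIs in PFC microglia, and Pf4 had 30, 1, 0 and 0 UMIs in striatal and 0 UMIs in PFC microglia. Pf4 is itself among the markers by which the macrophage-marker cells were picked, so its fall was fixed by that choice. Wfdc17 was called whichever library was left out. Lyz2 lost the call in 6 of the 8 such fits, Pf4 in 3, namely without striatal WT 1, WT 2 or Setd1a+/- 1, and Cd74 in 2, namely without striatal WT 2 or Setd1a+/- 2 (edgeR FDR 0.109 and 0.131).

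Among other lists, 0 of 11 tested chemokine and cytokine genes were called between tissues. Of 18 tested genes of the immediate early and dissociation response, 4 were higher in striatal microglia and 0 lower, beside 11.3% higher and 5.21% lower of all genes tested, with a median log2 FC of 0.72. They were Junb (1.92 ± 0.42, SE) and Egr1 (1.73 ± 0.39), early transcription factors, and Hsph1 (2.44 ± 0.33) and Hsp90aa1 (1.32 ± 0.23), chaperones. Junb lost the call without striatal WT 2 and Egr1 without PFC WT 1. Striatal tissue was digested longer than PFC tissue per the methods, and Egr1, Hsph1 and Hsp90aa1 were at higher levels in D1 and D2 MSNs than in striatal microglia. The part of either in these differences was not tested. The count of calls over all genes moved by over 1.5 times when a library was left out: 804 without PFC WT 2, 322 without striatal WT 1 and 281 without striatal WT 2, while 421 of 3366 genes were called without Setd1a+/- 2, 316 (9.39%) higher and 105 (3.12%) lower, and 8 of 25 homeostatic genes were lower in that fit.

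**Figure D5:**
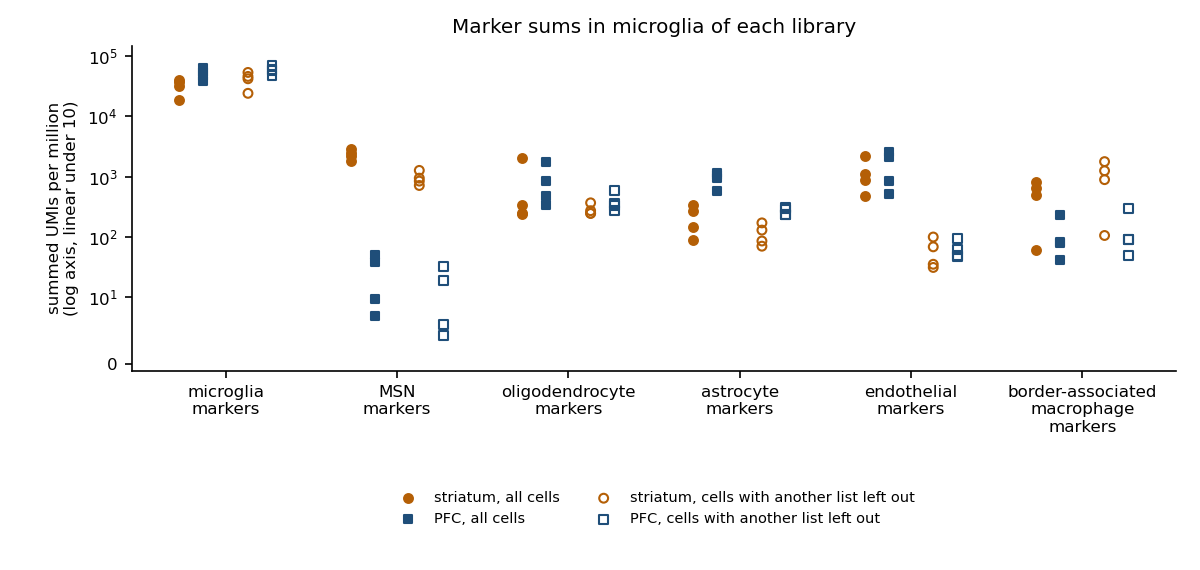
Summed level of marker lists in microglia of each library (CPM, log axis, linear under 10), with filled symbols for all cells and open symbols without cells carrying another type's list. MSN markers are at 1843 to 2883 CPM in striatal and 7.09 to 50.6 CPM in PFC microglia, and stay apart, at 711 to 1266 CPM in striatum, after those cells are left out.

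The effect of genotype was not shown to differ between striatal and PFC microglia. For the interaction of genotype and tissue, 0 of 4108 genes (0%) had an FDR under 0.05 in edgeR, 38 had an unadjusted p under 0.05, and DESeq2 called 0. Ccl12, the chemokine gene named above, had 105 and 178 CPM in PFC WT 1 and 2, and 648 and 107 CPM in PFC Setd1a+/- 1 and 2. Setd1a+/- replicate 1 was thus the highest library in both tissues, while among WT libraries replicate 2 was the higher in both.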

How the data were processed

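Single cells of 4 striatal and 4 PFC libraries (2 WT and 2 Setd1a+/- each) were measured by 10x sequencing. The authors deposited raw UMI counts per droplet, made with Cell Ranger 3.0.2 on mm10, and tables naming the type of each cell kept, from Seurat 3.2.0, after removing cells with few genes or a high mitochondrial share. Per the labels and methods, each library pooled 2 mice. The deposited normalized tables were not used. Whole-library counts in striatum were 17440876 to 26277553 UMIs.

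Microglia were matched by library and barcode, and their counts were summed per library over 31053 features. Sums were tested with edgeR 4.0.16 (quasi-likelihood, TMM, filterByExpr, Benjamini-Hochberg FDR under 0.05 and FC above 2, for the interaction FDR alone), in R 4.3.3. The methods tested single cells, where cells stood as replicates. DESeq2 1.42.0, other scaling, gene filters, leaving out a library or a set of cells, and the replicate block were alternatives. The summed counts of a library are its depth, which sets the precision, and n = 2 libraries per group. The methods put 1 WT and 1 Setd1a+/- sample in each replicate, so the number pairs them, and same-numbered striatal libraries deviated together with r = 0.10 over 4108 genes. CPM are descriptive. Tools were tested on simulated data.

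The members and lists were chosen with earlier results of these data known. Named genes were the 25 with the highest ratio to the next type among those at 100 CPM in every library, the 10 with the lowest p among non-overlapping genes for genotype (fewer than 10 were called), the 12 called, non-overlapping genes with the largest FC each way for tissue at 50 CPM or more in the higher tissue, and 3 a list by p. Others were chosen after their values were seen. Python 3.11.15, numpy 2.4.6, scipy 1.17.1, pandas 2.3.3 and matplotlib 3.10.9 were used, with promoters from RefSeq. Some genes that these rules name are not reported here.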

Additional observations from a re-analysis of the deposited data

How the results depend on the processing

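Between genotypes, 0 genes were called in each alternative other than 2: the replicate block gave 1, and leaving out 1 library gave 0 to 108, the 108 without Setd1a+/- 1. Between tissues, 496 became 1269 with every gene of at least 1 UMI, 113 without microglia carrying another type's list, and 281 to 804 when 1 library was left out. The replicate block gave 522, of which 488 were shared with the 496, and it changed no other call by over 1.5 times. For the interaction, 0 became 5 with every gene of at least 1 UMI. The difference in the share of microglia, -0.252 percentage points, ranged from -0.931 to 0.426 when 1 library was left out, was 0.426 without Setd1a+/- 2, and was 0.19 among glial and vascular cells. The cause was not tested. The genes named for genotype were chosen without overlap and uncalled, so their direction says nothing of stability. For tissue 593 values kept direction and side of the threshold, 56 values over 18 genes lost the call, and 0 reversed. Those 39 genes were chosen because they were called, in part without overlap, so the lack of reversals says little of stability. Without cells carrying another type's list 14 kept the call, 12 lost it and the rest were not tested. Leaving out the Cd74 cells, and the share among glial and vascular cells, were chosen after seeing the data. Depth is limited by 24 microglia in Setd1a+/- 2.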
